A study of Homo sapiens with 18 samples.

Results

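SNU2535 and NCI-H2228 are human lung cancer lines that both carry an EML4-ALK rearrangement, and this comparison describes how their RNA differed before any drug was given. Each group held 3 poly-A RNA libraries: untreated SNU2535 (DMSO vehicle for 3 h) and untreated NCI-H2228 (DMSO vehicle for 3 h), with libraries numbered 1 to 3 in each line and the number also given as the batch. Per the labels, both lines are non-small cell lung cancer cells of genotype WT, grown in RPMI medium with serum, plated overnight in 10 cm dishes and pelleted after the 3 h exposure. The whole study has 18 libraries, with the same lines and NCI-H3122 given DMSO or 3 µM TRI-611, a molecular glue degrader of ALK. The genes described were those at 1 transcript per 1000000 (TPM) or more in at least 3 of the 6 untreated libraries, which was 17297 of the 57500 genes in the table, 12995 of them protein-coding. Of these, 890 lay below 1 TPM in every NCI-H2228 library and 1156 lay below 1 TPM in every SNU2535 library, so they entered through the other line alone. Each line is 1 established culture from 1 tumour, and the labels leave unsaid whether the 3 libraries of a line were cultured apart. The p-values therefore describe only how far these libraries spread, which may be technical.

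ALK is a receptor tyrosine kinase that normal lung epithelium hardly uses. Joined to EML4 by an inversion on chromosome 2, its kinase domain is held in dimers and signals without ligand through RAS and ERK, PI3K and STAT3. Lung adenocarcinoma cells usually keep parts of the alveolar epithelial programme, in which the transcription factor NKX2-1 turns on surfactant genes and E-cadherin holds cells in sheets. Carcinoma cells can also sit further toward a mesenchymal state, in which ZEB1 and SNAI2 repress the epithelial genes and vimentin and matrix genes are on.

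Differences are given as SNU2535 minus NCI-H2228 on the log2(TPM + 1) scale with a standard error (SE), tested with limma over all 17297 genes and adjusted by the Benjamini-Hochberg method. This scale understates the change of genes with low TPM. At an adjusted p under 0.05, 13333 genes were called (77.1%), 5734 of them higher in SNU2535 (33.2%) and 7599 lower (43.9%). Since most genes passed, the counts below also use calls of at least 2-fold, which took in 2251 genes higher in SNU2535 (13% of those tested) and 2857 lower (16.5%). With a pseudocount of 5 these counts were 1260 and 1486. After median-ratio scaling they were 2541 and 2509, and all calls were 6489 higher and 6755 lower, so the excess of lower calls depended on the scaling. The lowest library of one line exceeded the highest of the other for 78.9% of all tested genes. The correlation across genes was 0.989 to 0.991 between libraries of 1 line and 0.836 to 0.839 between the lines. The median difference over all tested genes was −0.13, and it was −0.02 after median-ratio scaling, so that all the differences below stand against a general shift of about this size. Within the 3 batches, 5099 of the 5108 genes called with 2-fold kept their sign in every batch. The same 6 libraries made these calls, which nearly fixes that outcome, so it is no separate support. In the 6 TRI-611 libraries of the same lines, which share none with this comparison, 4443 of those 5108 genes (87%) were again called with 2-fold in the same direction. Those libraries are of the same lines and batch numbers, so this is no separate test of the untreated difference.

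**Figure D1:**
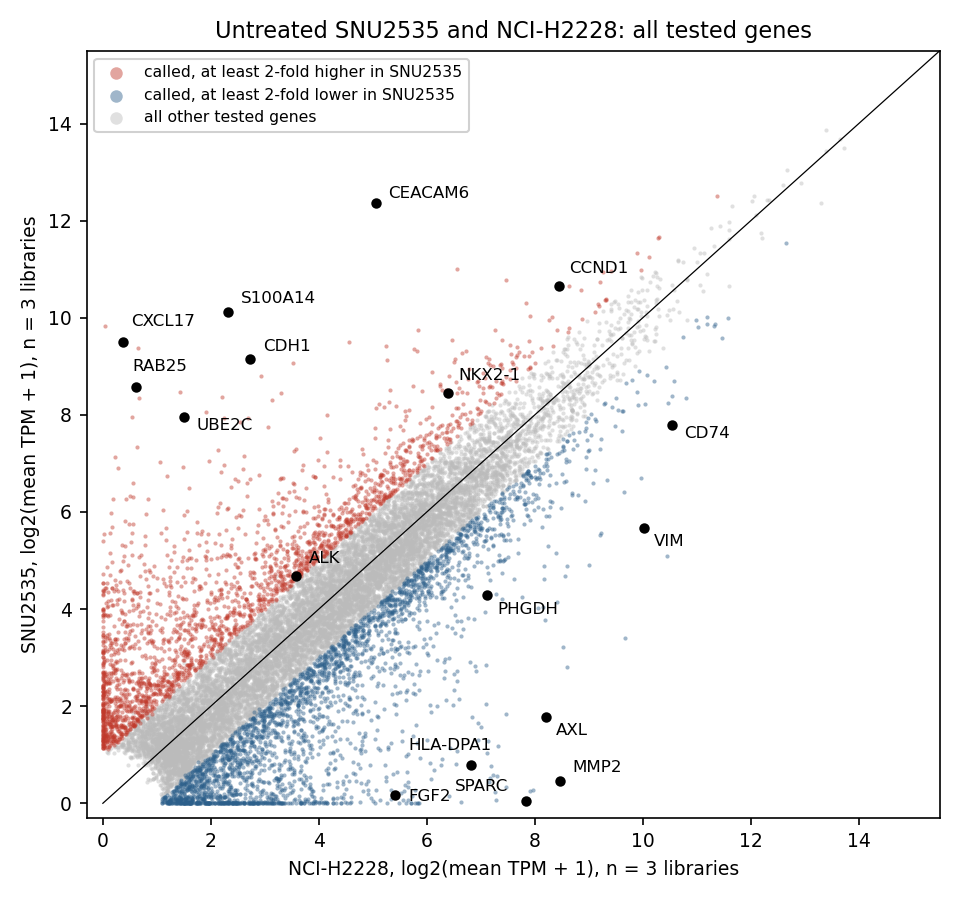
Mean level of every tested gene in untreated SNU2535 (vertical axis) and untreated NCI-H2228 (horizontal axis), each as log2(mean TPM + 1) over 3 libraries. Red points are the 2251 genes called with at least 2-fold higher levels in SNU2535, blue points the 2857 called with at least 2-fold lower levels, grey points all others, and the line marks equal levels. CDH1, RAB25, CXCL17 and UBE2C lie far above the line, and MMP2, SPARC, AXL and VIM far below it.

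The markers of lung adenocarcinoma epithelium were present in both lines. EPCAM had 399, 406 and 421 TPM in the SNU2535 libraries, against 125, 119 and 117 TPM in the NCI-H2228 libraries. KRT19 had 3098, 3318 and 3136 TPM in the SNU2535 libraries, against 1264, 1210 and 1238 TPM in the NCI-H2228 libraries, and NKX2-1 was above 80 TPM in every library. CDH1 was under 6 TPM in NCI-H2228, and the surfactant gene SFTPC was under 0.1 TPM in all 6 libraries. Of 25 markers of other cell types, 8 passed the filter, and their summed level was 187 to 195 TPM in SNU2535 and 391 to 414 TPM in NCI-H2228. COL1A1, a fibroblast collagen, carried most of that sum in both lines, with 134, 140 and 131 TPM in SNU2535 and 376, 370 and 393 TPM in NCI-H2228. Of the 8, COL1A1 was called lower in SNU2535, PECAM1, CSF1R, ACTA2, CDH5 and LUM were called higher, and CD14 and CD68 did not pass the test. CD68 was called lower without NCI-H2228 replicate 1 (−0.45 with it, −0.66 without). At −0.45, CD68 was also called lower among protein-coding genes only and in a fit of all 18 libraries. LUM, a fibroblast proteoglycan, had 5.62, 5.69 and 5.72 TPM in SNU2535 and 0.244, 0.186 and 0.0994 TPM in NCI-H2228. ACTA2, of smooth muscle and myofibroblasts, had 22.3, 21.8 and 23.3 TPM in SNU2535 and 4.64, 4.7 and 4.37 TPM in NCI-H2228, and the endothelial CDH5 had 4.8, 4.64 and 4.73 TPM in SNU2535 and 0.0246, 0 and 0.025 TPM in NCI-H2228. Among the markers that did not pass the filter, HBB and DCN were at 0 in all 6 libraries, and PTPRC, CD3E, VWF and COL3A1 were under 0.8 TPM in every library. CD14 had 6.17, 8.05 and 7.27 TPM in SNU2535 and 8.33, 7.42 and 8.24 TPM in NCI-H2228, and PECAM1, of endothelium and blood cells, had 6.18, 6.42 and 6.71 TPM in SNU2535 and 2.42, 2.43 and 2.41 TPM in NCI-H2228. The part of these genes in the results below was not tested. Mitochondrially encoded genes took 8.70% ± 1.18 of all TPM in SNU2535 and 9.07% ± 1.23 in NCI-H2228 (SD, n = 3 each), a difference smaller than the spread (exact permutation p = 0.7, two-sided). Cytosolic ribosomal protein genes took 6.43% ± 0.0916 in SNU2535 and 5.17% ± 0.121 in NCI-H2228 (exact permutation p = 0.1, two-sided, the smallest that 3 against 3 allows). In bulk RNA like this, fewer cells of a kind and less RNA per cell cannot be told apart.

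The largest differences were close to an on and off pattern. The protein-coding gene with the largest positive difference was LY6D, a surface protein of squamous and basal epithelium, with 909, 921 and 896 TPM in the SNU2535 libraries, against 0, 0 and 0.0962 TPM in the NCI-H2228 libraries. CXCL17, a mucosal chemokine, followed with 709, 722 and 726 TPM in the SNU2535 libraries, against 0.618, 0.118 and 0.126 TPM in the NCI-H2228 libraries. MUC21, a membrane mucin of lung and upper airway, had 653, 663 and 664 TPM in the SNU2535 libraries, against 1.05, 0.406 and 0.276 TPM in the NCI-H2228 libraries. These 3 genes were high in SNU2535 and near 0 in NCI-H2228. The cell adhesion gene CEACAM6 was high in SNU2535 and still expressed in NCI-H2228, with 5329, 5078 and 5489 TPM in the SNU2535 libraries, against 33.7, 29.7 and 33.3 TPM in the NCI-H2228 libraries. S100A14, AP1M2, RAB25, PEG10, NCCRP1 and SFTA2 made up the rest of the 10 largest positive differences, which ran from 6.92 to 9.79.

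On the other side stood the matrix metalloproteinase gene MMP2, with 0.283, 0.501 and 0.354 TPM in the SNU2535 libraries, against 352, 335 and 369 TPM in the NCI-H2228 libraries. SPARC, a secreted matrix glycoprotein, had 0.0642, 0 and 0.0278 TPM in the SNU2535 libraries, against 230, 217 and 233 TPM in the NCI-H2228 libraries. The methyltransferase gene BHMT2 was listed at 0 in each SNU2535 library and had 226, 217 and 236 TPM in NCI-H2228. The lines did not overlap for these genes, nor for 78.9% of all tested genes. G0S2, NNMT, ANPEP, NID1, CA12, HLA-DQB1 and CTHRC1 completed the 10 largest negative differences, from −6.72 to −8.00.

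Some genes were on in 1 line and close to 0 in the other. Counting genes at 5 TPM or more in each library of 1 line and at 0.5 TPM or less in each of the other, 165 were restricted to SNU2535 (0.954% of tested genes, 127 of them protein-coding) and 217 to NCI-H2228 (1.25%, 162 of them protein-coding). After LY6D and SFTA2, the most abundant of SNU2535 were STEAP4, a metalloreductase, with 115, 116 and 126 TPM, and TMPRSS4, a membrane serine protease, with 80, 81.3 and 75.9 TPM. MACC1, an inducer of MET transcription in colon cancer cells, had 80.4, 72.6 and 74.9 TPM in SNU2535 and 0.341, 0.325 and 0.347 TPM in NCI-H2228. GNGT2, HCLS1, NECTIN4, SLAMF7 and CLDN8 were the others of the 10, at means of 50.6 to 76.5 TPM in SNU2535. HCLS1 and SLAMF7 are best known from blood cells. Of the blood cell markers, PTPRC was under 0.11 TPM in all 6 libraries, CD14 was expressed in both lines and CSF1R had 2.98, 3.39 and 2.9 TPM in SNU2535 and 0.371, 0.299 and 0.348 TPM in NCI-H2228, and their part in these genes was not tested. In NCI-H2228 the 10 were NNMT, SPARC, BHMT2, NID1, HLA-DQB1, ANPEP, CA12, TSPYL1, CCDC50 and PXDN, at means of 66.1 to 240 TPM. At stricter thresholds of 10 and 0.1 TPM, 28 genes were restricted to SNU2535 and 53 to NCI-H2228.

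The epithelial adhesion programme was higher in SNU2535 almost throughout. Of 53 listed genes of epithelial junctions, polarity and their regulators, 52 were tested: 51 were called higher and 1 lower, and 42 (80.8%) were called with at least 2-fold, against 13% of all tested genes. Their median difference was 2.31, against −0.13 over all tested genes, and 2.24 to 2.36 within the 3 batches. Of the 52, 9 were below 1 TPM in every NCI-H2228 library and so passed the filter through SNU2535 alone. Over all 53 genes the summed level was 12004 to 12307 TPM in SNU2535 and 2503 to 2626 TPM in NCI-H2228. CDH1 encodes E-cadherin, the adherens junction protein of epithelium (ENSG00000039068, GRCh38 chromosome 16, 68737225 to 68835548). It had 573, 563 and 566 TPM in the SNU2535 libraries, against 5.56, 5.71 and 5.69 TPM in the NCI-H2228 libraries, a difference of 6.42 ± 0.034 (SE; adjusted p = 4.43e-11).

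The regulators of epithelial identity followed the same pattern. ESRP1, which directs epithelial splicing, had 133, 134 and 128 TPM in the SNU2535 libraries, against 3.43, 2.55 and 2.73 TPM in the NCI-H2228 libraries. ESRP2, its paralogue, had 74, 77 and 73.2 TPM in SNU2535 and 28.7, 30.5 and 33.9 TPM in NCI-H2228, a smaller difference of 1.24. The transcription factors GRHL2 and OVOL2, which hold epithelial cells in that state, had 27, 28.9 and 31.1 TPM and 30.6, 38.1 and 29.4 TPM in SNU2535, against 0.363, 0.277 and 0.518 TPM and 2.9, 2.7 and 2.68 TPM in NCI-H2228. The lines did not overlap for any of these genes, nor for 78.9% of all tested genes. ELF3 and EHF, epithelial ETS factors, differed less, by 1.33 ± 0.04 and 1.72 ± 0.039. NCI-H2228 thus kept 37.7 to 57.3 TPM of these factors while GRHL2 was under 1 TPM.

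Tight junction genes showed a graded difference. CLDN7 had 333, 362 and 379 TPM in the SNU2535 libraries, against 59.6, 55.2 and 61.7 TPM in the NCI-H2228 libraries. CLDN4 had 374, 393 and 384 TPM in SNU2535 and 54.5, 50.9 and 52 TPM in NCI-H2228, and CLDN3 had 88.9, 89.5 and 93.1 TPM in SNU2535 and 25.2, 24.6 and 29.2 TPM in NCI-H2228. The tight junction scaffold TJP3 differed by 3.18 ± 0.062, and its relative TJP1 by 1.00 ± 0.038. CLDN1 differed least of the claudins listed, at 0.44 ± 0.041, with 302, 299 and 304 TPM in SNU2535 and 234, 219 and 212 TPM in NCI-H2228. RAB25, an epithelial vesicle trafficking GTPase (GRCh38 chromosome 1, 156061160 to 156070514), had 376, 383 and 375 TPM in the SNU2535 libraries, against 0.432, 0.741 and 0.44 TPM in the NCI-H2228 libraries. AP1M2, the epithelial subunit of a sorting adaptor, and PRSS8, a membrane serine protease, showed the other wide gaps of the list, at 7.68 ± 0.061 and 6.71 ± 0.13. ST14, the protease matriptase, had 563, 604 and 592 TPM in the SNU2535 libraries, against 133, 129 and 141 TPM in the NCI-H2228 libraries. The 1 exception was DSP, the desmosomal plaque protein desmoplakin, with 34.7, 31.2 and 30.8 TPM in the SNU2535 libraries, against 63.6, 62.1 and 65.5 TPM in the NCI-H2228 libraries, a difference of −0.96 ± 0.054 (adjusted p = 1.18e-06), while the desmosomal genes DSC2, JUP and PKP3 were higher in SNU2535 by 4.96, 2.78 and 2.08.

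ZEB and SNAI factors bind the E-box CACCTG, which reads as CAGGTG when found on the opposite strand, in promoters of epithelial genes, and the promoter windows of 4 listed epithelial genes with wide differences between the lines are shown for that reason. Each runs from 250 bases before to 50 bases after an annotated start (RefSeq, GRCh38.p14), is written 5′ to 3′ on the gene's strand, and has each such motif, of either reading, in capitals. The RAB25 window (plus strand, chr1:156060910-156061209) holds 2 such motifs. The TJP3 windows (plus strand, chr19:3708134-3708433 and chr19:3721487-3721786) hold 0 and 1. The CLDN4 window (plus strand, chr7:73830746-73831045) holds 0. The CLDN7 windows (minus strand, chr17:7263164-7263463 and chr17:7262429-7262728) hold 0 and 5, of which 3 lie within 20 bases of the second start.
RAB25: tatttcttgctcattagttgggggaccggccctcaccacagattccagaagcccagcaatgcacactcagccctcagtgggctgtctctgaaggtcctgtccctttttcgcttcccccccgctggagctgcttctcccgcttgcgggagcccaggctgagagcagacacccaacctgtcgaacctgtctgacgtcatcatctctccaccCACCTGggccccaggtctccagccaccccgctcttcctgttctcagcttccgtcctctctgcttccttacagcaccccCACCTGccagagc
TJP3, first start: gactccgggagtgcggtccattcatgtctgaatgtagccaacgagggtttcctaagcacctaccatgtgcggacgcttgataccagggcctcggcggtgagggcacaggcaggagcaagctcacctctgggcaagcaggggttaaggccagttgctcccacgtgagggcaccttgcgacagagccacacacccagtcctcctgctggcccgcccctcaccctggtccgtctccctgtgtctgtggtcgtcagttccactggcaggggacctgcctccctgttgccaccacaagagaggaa
TJP3, second start: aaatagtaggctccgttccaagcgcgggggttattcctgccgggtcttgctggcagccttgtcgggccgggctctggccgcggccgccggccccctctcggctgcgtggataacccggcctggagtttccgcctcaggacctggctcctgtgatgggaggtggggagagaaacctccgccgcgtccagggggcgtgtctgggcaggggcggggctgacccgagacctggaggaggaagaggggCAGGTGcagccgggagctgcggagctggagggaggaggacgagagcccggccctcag
CLDN4: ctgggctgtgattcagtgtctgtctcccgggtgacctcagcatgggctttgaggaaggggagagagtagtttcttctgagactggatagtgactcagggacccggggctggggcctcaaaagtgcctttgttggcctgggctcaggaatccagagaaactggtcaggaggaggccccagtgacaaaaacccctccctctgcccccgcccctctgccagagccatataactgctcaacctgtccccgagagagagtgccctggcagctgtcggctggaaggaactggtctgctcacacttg
CLDN7, first start: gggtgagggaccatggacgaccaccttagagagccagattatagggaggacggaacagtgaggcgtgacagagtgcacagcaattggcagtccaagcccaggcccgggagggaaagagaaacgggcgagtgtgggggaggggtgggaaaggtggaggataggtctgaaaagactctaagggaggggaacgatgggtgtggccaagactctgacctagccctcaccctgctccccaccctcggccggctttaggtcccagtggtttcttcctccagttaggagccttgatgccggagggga
CLDN7, second start: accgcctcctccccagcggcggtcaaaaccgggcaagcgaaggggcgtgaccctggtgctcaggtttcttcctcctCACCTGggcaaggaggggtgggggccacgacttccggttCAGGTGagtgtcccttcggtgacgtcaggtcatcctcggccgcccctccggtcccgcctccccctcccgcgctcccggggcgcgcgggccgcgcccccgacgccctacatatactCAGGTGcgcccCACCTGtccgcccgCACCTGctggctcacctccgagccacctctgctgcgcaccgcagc
Over all 35116 promoter windows of this length in the table, 20.6% hold at least 1 of these motifs. For the listed epithelial genes, 32 matched by symbol with 44 windows, of which 23 (52.3%) hold one. For the mesenchymal genes below, 36 matched with 67 windows, of which 8 (11.9%) do. For the lung lineage genes, 25 matched with 52 windows, of which 14 (26.9%) do. CDH1, EPCAM, ESRP2, OVOL2 and ST14 had no entry. A match is a description of these letters and says nothing of what is bound there, and CLDN4, with none, differed by 2.85.

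Mesenchymal and matrix genes ran the other way, with exceptions. Of 55 listed genes, 43 were tested, 35 were called lower in SNU2535 and 7 higher, and 29 (67.4%) were lower with at least 2-fold, against 16.5% of all tested genes. The median difference was −1.49, and −2.70 with a pseudocount of 0.1 in place of 1. Of the 43, 12 were below 1 TPM in every SNU2535 library and passed through NCI-H2228 alone. VIM, the intermediate filament vimentin, had 50.6, 51.7 and 48.3 TPM in the SNU2535 libraries, against 1070, 1026 and 1011 TPM in the NCI-H2228 libraries. The repressor ZEB1 (GRCh38 chromosome 10, 31318495 to 31529814) had 0.0359, 0.0408 and 0.109 TPM in the SNU2535 libraries, against 13.3, 12.7 and 13 TPM in the NCI-H2228 libraries. ZEB2 was under 0.03 TPM in SNU2535 and at 1.18, 1.27 and 1.15 TPM in NCI-H2228. SNAI2 was expressed in both lines, with 16.3, 17.4 and 16.3 TPM in the SNU2535 libraries, against 47.6, 48.1 and 50.5 TPM in the NCI-H2228 libraries. ZEB1 and ZEB2 were thus close to 0 in SNU2535 while SNAI2 was not. TWIST1 was at 0 in all 6 libraries and N-cadherin, CDH2, was at 0 in 5 of 6 and at 0.0302 TPM in the other, so neither of these mesenchymal markers was detected in NCI-H2228 above a trace.

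The secreted matrix and its proteases followed. MMP14, a membrane collagenase that activates MMP2, had 6.01, 6.37 and 5.54 TPM in the SNU2535 libraries, against 385, 373 and 398 TPM in the NCI-H2228 libraries. COL6A1 had 28.8, 31.5 and 26.7 TPM in SNU2535 and 512, 500 and 527 TPM in NCI-H2228, and COL5A1 had 0.679, 0.931 and 0.649 TPM in SNU2535 and 87.7, 88.8 and 99.4 TPM in NCI-H2228. FN1, fibronectin, was abundant in both lines, with 325, 323 and 329 TPM in the SNU2535 libraries, against 708, 690 and 765 TPM in the NCI-H2228 libraries. TGFB2, which drives the mesenchymal state, had 87.9, 79 and 87.8 TPM in SNU2535 and 210, 200 and 216 TPM in NCI-H2228. Some members went against the rest. TGFBI, a TGF-beta induced matrix protein, was higher in SNU2535, with 1143, 1178 and 1145 TPM in the SNU2535 libraries, against 684, 672 and 674 TPM in the NCI-H2228 libraries. CAV1, GAS6, LUM, ACTA2, THBS1 and TAGLN were the others called higher, by 1.70, 2.69, 2.51, 2.08, 0.64 and 0.48. THBS1 did not keep that direction in the TRI-611 libraries, where its difference was −0.20. CD44, a hyaluronan receptor, differed by only −0.23 ± 0.031.

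Integrins and basement membrane genes differed in both directions. Of 18 integrin genes tested, 6 (33.3%) were called higher in SNU2535 and 12 (66.7%) lower, against 33.2% and 43.9% of all tested genes. Of the 18, 3 were below 1 TPM in every SNU2535 library and 1 in every NCI-H2228 library, and so passed the filter through 1 line alone. ITGB4, the hemidesmosome subunit, had 981, 1035 and 937 TPM in the SNU2535 libraries, against 306, 300 and 316 TPM in the NCI-H2228 libraries. ITGB6, an epithelial subunit of the receptor that activates TGF-beta, had 64.8, 66.1 and 72.2 TPM in the SNU2535 libraries, against 3.23, 3.19 and 3.76 TPM in the NCI-H2228 libraries. The fibronectin receptor chain ITGA5 had 11.1, 11.5 and 11 TPM in the SNU2535 libraries, against 86.2, 85.6 and 88.9 TPM in the NCI-H2228 libraries, and its partner ITGB1 differed by −1.25 ± 0.034. ITGAV, ITGA3, ITGA6 and ITGA2 were lower in SNU2535 as well, at −1.50, −0.81, −0.76 and −0.27. Among 31 laminin and collagen genes tested, 12 (38.7%) were called higher and 19 (61.3%) lower. Of the 31, 8 were below 1 TPM in every SNU2535 library and 4 in every NCI-H2228 library. These passed the filter through 1 line alone and had to differ. COL17A1, the hemidesmosomal collagen, had 701, 750 and 705 TPM in the SNU2535 libraries, against 22.7, 21.7 and 23.4 TPM in the NCI-H2228 libraries. COL4A2, of the basement membrane, had 0.908, 1.52 and 1.14 TPM in the SNU2535 libraries, against 83.4, 80.7 and 90.4 TPM in the NCI-H2228 libraries, and its partner chain COL4A1 differed by −1.25 ± 0.076. The laminin chain genes LAMA3 and LAMB3 were higher in SNU2535, by 1.55 and 0.22. ITGB4, COL17A1, LAMA3 and LAMB3 were thus higher in SNU2535, while COL4A1, COL4A2, COL5A1 and COL6A1 were lower. The chains COL4A3, COL4A4 and COL4A5, of other basement membranes, were higher, by 1.04, 2.55 and 1.52.

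Proteases and their inhibitors followed the lines' own sets. Of 35 tested, 16 (45.7%) were called higher in SNU2535 and 18 (51.4%) lower, against 33.2% and 43.9% of all tested genes. At 2-fold or more, 11 (31.4%) were higher and 14 (40%) lower, against 13% and 16.5% of all. Of the 35, 3 were below 1 TPM in every SNU2535 library and 2 in every NCI-H2228 library, and so passed the filter through 1 line alone. The secreted collagenase MMP1 had 2.28, 2.69 and 2.25 TPM in the SNU2535 libraries, against 31.5, 34.5 and 33.5 TPM in the NCI-H2228 libraries. PLAU, the urokinase plasminogen activator, had 291, 298 and 301 TPM in the SNU2535 libraries, against 1013, 1074 and 1073 TPM in the NCI-H2228 libraries, while PLAT, the tissue-type activator, had 1041, 1087 and 1041 TPM in the SNU2535 libraries, against 239, 232 and 253 TPM in the NCI-H2228 libraries. The 2 plasminogen activators thus ran in opposite directions. TIMP1, an inhibitor of metalloproteinases, was lower in SNU2535, at −1.72 ± 0.036. The epithelial membrane protease TMPRSS2 had 31.8, 34.5 and 30.9 TPM in the SNU2535 libraries, against 3.36, 3.06 and 3.59 TPM in the NCI-H2228 libraries, and the kallikrein KLK6 and the serpin SERPINB5 were higher by 4.92 and 4.40. MMP7, an epithelial metalloproteinase, and SLPI, an airway protease inhibitor, were higher by 0.38 ± 0.044 and 0.71 ± 0.047.

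**Figure D2:**
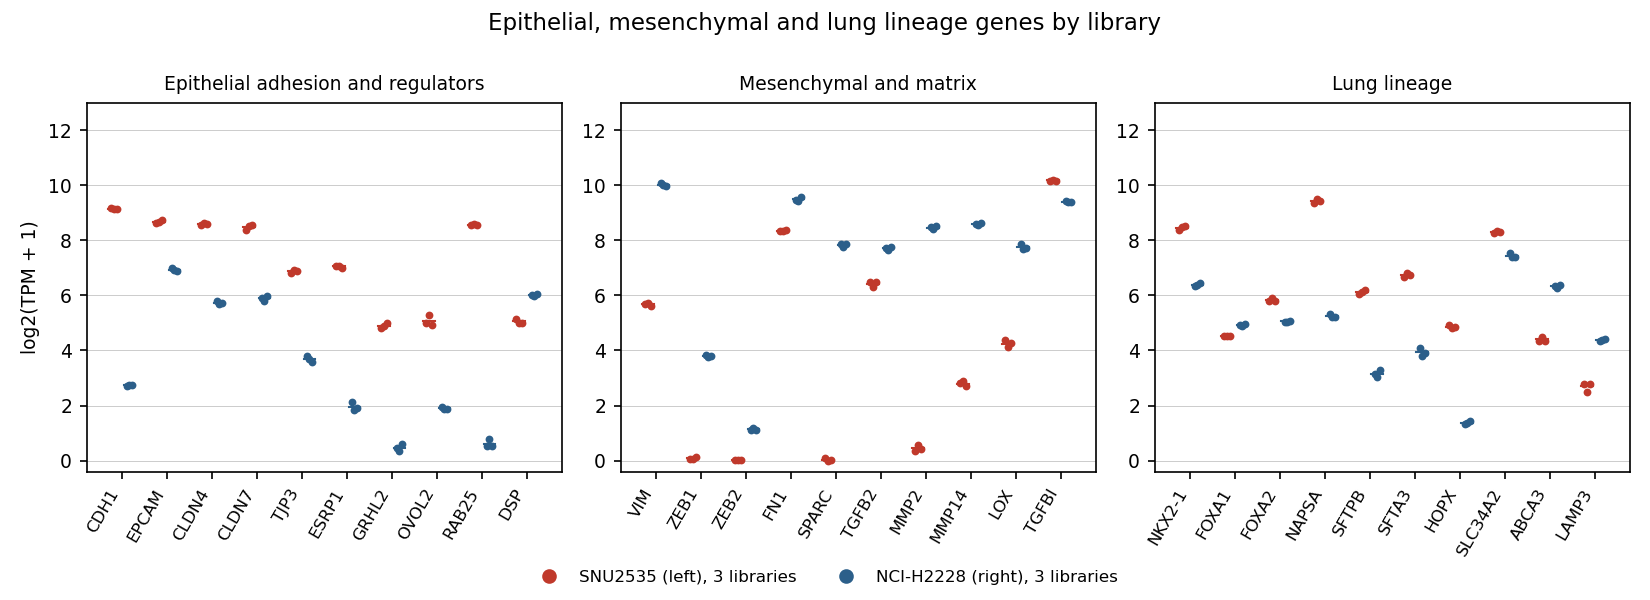
Level of 10 epithelial, 10 mesenchymal and matrix, and 10 lung lineage genes as log2(TPM + 1) in each untreated library, with SNU2535 on the left of each gene and NCI-H2228 on the right, and a bar for the mean of 3 libraries. All 10 epithelial genes but DSP sit higher in SNU2535, all 10 mesenchymal and matrix genes but TGFBI sit higher in NCI-H2228, and the lung lineage genes are mixed, with FOXA1, ABCA3 and LAMP3 higher in NCI-H2228.

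Lung lineage genes were mostly higher in SNU2535, with exceptions. Of 30 listed genes, 24 were tested, 18 were called higher in SNU2535 and 5 lower (33.2% and 43.9% of all tested genes were), with 13 and 4 at 2-fold or more (13% and 16.5% of all tested genes) and a median difference of 1.64 (1.55 to 1.65 within batches, and 0.90 with a pseudocount of 5). Of the 24, 4 were below 1 TPM in every NCI-H2228 library and passed the filter through SNU2535 alone. NKX2-1 (GRCh38 chromosome 14, 36516392 to 36521149), the lineage factor of lung and thyroid, had 328, 360 and 363 TPM in the SNU2535 libraries, against 80.6, 81.7 and 87 TPM in the NCI-H2228 libraries, 4.22-fold higher in the means. NAPSA, the aspartic protease that processes surfactant protein B, had 649, 716 and 695 TPM in the SNU2535 libraries, against 38.6, 36.6 and 35.8 TPM in the NCI-H2228 libraries. SFTPB itself had 65.6, 68.2 and 71.8 TPM in the SNU2535 libraries, against 7.83, 7.11 and 8.84 TPM in the NCI-H2228 libraries. SFTPA1 had 16.5, 15.3 and 15.7 TPM in SNU2535 and 1.02, 0.457 and 0.244 TPM in NCI-H2228, although its near-identical neighbour SFTPA2 can share its reads, so the split between these genes is uncertain. HOPX, a marker of type 1 alveolar cells, and LMO3, a transcription cofactor, were both under 2 TPM in NCI-H2228, with differences of 3.49 ± 0.067 and 5.03 ± 0.084. SLC34A2, the phosphate transporter of type 2 cells, was expressed in both lines and higher in SNU2535 by 0.87 ± 0.045. FOXA2 was higher by 0.78 ± 0.049 and FOXA1 lower, at −0.40 ± 0.042. In contrast to NKX2-1 and NAPSA, the lamellar body transporter ABCA3 had 19.4, 21.7 and 19.4 TPM in the SNU2535 libraries, against 79.7, 75.3 and 83.1 TPM in the NCI-H2228 libraries. LAMP3, a lamellar body membrane protein, had 5.97, 4.67 and 5.92 TPM in the SNU2535 libraries, against 19.4, 19.7 and 20.6 TPM in the NCI-H2228 libraries. ETV5 was lower in SNU2535 too, at −1.81, and so was DRAM1, at −2.88. DRAM1 is on this list but is better known as an autophagy gene and p53 target.

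HOX genes, which record position along the body axis, differed in both directions. Of 22 tested, 10 (45.5%) were called higher in SNU2535 and 10 (45.5%) lower, against 33.2% and 43.9% of all tested genes. By 2-fold or more, 8 (36.4%) were higher and 9 (40.9%) lower, against 13% and 16.5% of all. Of the 22, 7 were below 1 TPM in every SNU2535 library and 3 in every NCI-H2228 library. These passed the filter through 1 line alone. HOXA5, a gene of lung development in mouse, was listed at 0 in each SNU2535 library and had 5.76, 6.07 and 5.95 TPM in the NCI-H2228 libraries. HOXB7 had 16.8, 18.1 and 14.6 TPM in the SNU2535 libraries, against 2.88, 3.39 and 2.54 TPM in the NCI-H2228 libraries, and HOXB5, of the same cluster, was lower, at −1.02 ± 0.16. HOXC10 and HOXD8 were higher by 1.18 ± 0.14 and 1.96 ± 0.21.

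Other lineages were represented by single genes. HNF4A, CDX2 and FOXA3, factors of gut and liver, were under 0.15 TPM in all 6 libraries. The secreted trefoil peptides TFF1, TFF2 and TFF3 were lower in SNU2535, with TFF1 at 2.53, 3.52 and 3.42 TPM in SNU2535 and 22.7, 22.6 and 19.3 TPM in NCI-H2228. Airway mucins differed in kind. The gel-forming MUC5B and MUC5AC were under 0.3 TPM in SNU2535, against 16.1, 17.3 and 21 TPM and 5.75, 6.11 and 7.76 TPM in NCI-H2228. The membrane mucins MUC1, MUC16, MUC20 and MUC21 were higher in SNU2535, by 0.89, 1.32, 6.17 and 8.74, and MUC4 was lower, at −1.35. MUC3A, which near copies make uncertain, differed by 4.04, and MUC13, a mucin of gut epithelium, had 33.6, 33 and 34.1 TPM in SNU2535 and 12.4, 10.8 and 10.5 TPM in NCI-H2228. SOX9 and PDX1, factors of gut and pancreas, were higher in SNU2535 by 1.72 and 2.13, AGR2, a secretory cell chaperone, by 0.46, and VIL1, villin of the gut brush border, was at most 0.385 TPM.

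Squamous and basal genes were split within the list. Of 18 tested, 12 were called higher in SNU2535 and 6 lower, against 33.2% and 43.9% of all tested genes. Of the 18, 8 were below 1 TPM in every NCI-H2228 library and 3 in every SNU2535 library, so these 11 passed the filter through 1 line alone and had to differ. TP63, the basal and squamous master regulator, had 14, 13.8 and 14.5 TPM in the SNU2535 libraries, against 1.52, 1.63 and 1.28 TPM in the NCI-H2228 libraries. IVL, involucrin of the cornified layer, had 318, 334 and 295 TPM in the SNU2535 libraries, against 7.64, 6.76 and 8.95 TPM in the NCI-H2228 libraries. SPRR1B, SPRR1A and the keratin KRT6A were higher too, at 18.5, 16.2 and 16.3, 7.47, 6.54 and 4.98 and 96.2, 100 and 100 TPM in SNU2535. KRT5, the basal keratin, was under 0.14 TPM in all 6 libraries, and SOX2 was at most 4.01 TPM. FAT2 and TRIM29 were higher by 4.58 and 2.98, and KRT14 by 0.98. SERPINB3 and SERPINB4, squamous serpins that can share reads, were lower in SNU2535, at −3.94 and −3.18, and KRT17 and S100A2 at −1.76 and −0.42. Simple epithelial keratins were abundant in both lines and higher in SNU2535. KRT7 had 2526, 2667 and 2601 TPM in the SNU2535 libraries, against 909, 929 and 1023 TPM in the NCI-H2228 libraries. KRT8, KRT18 and KRT19 differed by 1.05 ± 0.027, 1.06 ± 0.039 and 1.36 ± 0.033. KRT81, a hair keratin, was lower in SNU2535, at −2.15, and KRT13 and KRT78, of stratified epithelium, were higher by 4.12 and 2.63. Of 23 neuroendocrine genes, 6 were tested, and NEUROD1 was under 0.1 TPM in all libraries. UCHL1, a neuronal deubiquitinase, had 44.7, 47 and 48.4 TPM in the SNU2535 libraries, against 587, 579 and 617 TPM in the NCI-H2228 libraries. NCAM1, the neural adhesion molecule, had 1.97, 1.79 and 1.61 TPM in SNU2535 and 0.0922, 0.0769 and 0.141 TPM in NCI-H2228.

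ALK transcripts were present in both lines and more abundant in SNU2535. ALK (ENSG00000171094, GRCh38 chromosome 2, 29192774 to 29921566) had 22.5, 26.6 and 25.3 TPM in the SNU2535 libraries, against 11.1, 10.9 and 11.1 TPM in the NCI-H2228 libraries, a difference of 1.10 ± 0.068 (adjusted p = 2.2e-06). EML4 (ENSG00000143924, GRCh38 chromosome 2, 42169350 to 42332548) had 40, 37.3 and 37.6 TPM in the SNU2535 libraries, against 58.6, 57.3 and 59 TPM in the NCI-H2228 libraries, a difference of −0.59 ± 0.042 (adjusted p = 4.59e-06). ALK was thus 2.25-fold higher and EML4 1.52-fold lower in SNU2535. A per-gene TPM does not separate a fusion transcript from the unrearranged gene. The ligand genes ALKAL2 and PTN were under 0.3 TPM in all 6 libraries, and MDK, midkine, had 96.5, 101 and 99.8 TPM in the SNU2535 libraries, against 384, 378 and 386 TPM in the NCI-H2228 libraries. ALKAL1 was low in both lines, with 2.55, 3.34 and 5.41 TPM in SNU2535 and 0.845, 1.26 and 1.72 TPM in NCI-H2228. Of 21 adaptor and partner genes tested, 5 (23.8%) were called higher in SNU2535 and 13 (61.9%) lower, against 33.2% and 43.9% of all. SHC1, the adaptor that links receptors to RAS, had 212, 219 and 205 TPM in the SNU2535 libraries, against 497, 484 and 505 TPM in the NCI-H2228 libraries. GAB1 had 10.1, 8.95 and 10.3 TPM in SNU2535 and 1.48, 1.55 and 1.96 TPM in NCI-H2228, while GAB2 did not pass the test (−0.07 ± 0.076, adjusted p = 0.427). IRS2 was higher by 1.03 ± 0.074 and IRS1 lower, at −0.39 ± 0.062. FRS2 did not pass the test (0.13 ± 0.072, adjusted p = 0.15).

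Transcripts of receptor tyrosine kinases differed between the lines in both directions. Of 39 listed, 23 passed the filter. Of these, 9 (39.1%) were called higher in SNU2535 and 12 (52.2%) lower, against 33.2% and 43.9% of all tested genes. At 2-fold or more there were 6 of each (26.1%), against 13% and 16.5% of all. Of the 23, 2 were below 1 TPM in every SNU2535 library and 2 in every NCI-H2228 library, and so passed the filter through 1 line alone. AXL, the GAS6 receptor (ENSG00000167601, GRCh38 chromosome 19, 41219203 to 41261766), had 2.17, 2.64 and 2.56 TPM in the SNU2535 libraries, against 300, 289 and 290 TPM in the NCI-H2228 libraries. In the means it was 119-fold lower in SNU2535. GAS6, its ligand, ran opposite to the receptor, with 32.5, 37.3 and 32.7 TPM in the SNU2535 libraries, against 4.35, 4.66 and 4.38 TPM in the NCI-H2228 libraries. FGFR1 had 3.87, 3.8 and 3.94 TPM in the SNU2535 libraries, against 44.2, 42 and 46.6 TPM in the NCI-H2228 libraries, and its ligand FGF2 had 0.114, 0.104 and 0.179 TPM in the SNU2535 libraries, against 43.6, 41 and 40.8 TPM in the NCI-H2228 libraries. Both ends of this FGF pair were thus lower in SNU2535. FGFR2, an epithelial FGF receptor, was at 4.37, 4.76 and 4.17 TPM in SNU2535 and under 0.02 TPM in NCI-H2228. IGF1R had 8.31, 8.08 and 8.4 TPM in SNU2535 and 21.9, 21.5 and 24.1 TPM in NCI-H2228. ROS1, RET and LTK were lower in SNU2535 as well, and none of them reached 16 TPM in any library.

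The ERBB and MET receptors stood higher in SNU2535, apart from EGFR. ERBB2 had 104, 111 and 110 TPM in the SNU2535 libraries, against 28, 27 and 28.4 TPM in the NCI-H2228 libraries. ERBB3, which pairs with ERBB2 to bind neuregulin, had 60.2, 61.2 and 59.1 TPM in the SNU2535 libraries, against 10.3, 9.66 and 9.77 TPM in the NCI-H2228 libraries. The ligand NRG1 had 27.4, 27.8 and 28.3 TPM in the SNU2535 libraries, against 1.98, 1.9 and 1.94 TPM in the NCI-H2228 libraries. NRG1, ERBB2 and ERBB3 were therefore all higher in SNU2535, with no overlap between the lines, as for 78.9% of all tested genes. EGFR had 88.8, 90.8 and 89.9 TPM in the SNU2535 libraries, against 145, 135 and 149 TPM in the NCI-H2228 libraries, a difference of −0.66 ± 0.043. Its ligands were mixed. EREG had 16.4, 18.2 and 18 TPM in the SNU2535 libraries, against 174, 166 and 164 TPM in the NCI-H2228 libraries, whereas AREG, TGFA and HBEGF were higher in untreated SNU2535 by 0.71 ± 0.043, 0.56 ± 0.041 and 0.28 ± 0.051. In the TRI-611 libraries the differences of these 3 genes were −1.42, −0.25 and −0.87, opposite in sign to those without the drug. MET had 542, 513 and 543 TPM in the SNU2535 libraries, against 260, 249 and 256 TPM in the NCI-H2228 libraries, and MST1R differed by 1.20 ± 0.068. HGF, the MET ligand, was listed at 0 in all 6 libraries. KITLG had 368, 348 and 376 TPM in the SNU2535 libraries, against 42.5, 37.2 and 37.2 TPM in the NCI-H2228 libraries, while its receptor KIT was under 0.1 TPM in every library. CSF1, the macrophage growth factor, was lower in SNU2535, with 11.6, 13.7 and 12.8 TPM in SNU2535 and 285, 278 and 309 TPM in NCI-H2228. VEGFA was lower, at −1.81 ± 0.052. INSR was higher by 0.82 ± 0.09 and DDR1 lower, at −0.38 ± 0.054, and FGFR3 did not pass the test (−0.28 ± 0.16, adjusted p = 0.16).

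The 10 ERK output genes, which ERK signalling turns on and which many cell types use as a readout, did not shift together. All 10 passed the test, 5 higher and 5 lower in SNU2535, where 77.1% of all tested genes passed. CCND1, cyclin D1, had 1657, 1595 and 1605 TPM in the SNU2535 libraries, against 340, 350 and 358 TPM in the NCI-H2228 libraries, a difference of 2.21 ± 0.031. EPHA4 had 18.3, 17.3 and 17.7 TPM in the SNU2535 libraries, against 3.71, 3.65 and 3.4 TPM in the NCI-H2228 libraries. The feedback phosphatase gene DUSP6 had 25.2, 28.1 and 28.3 TPM in the SNU2535 libraries, against 15.6, 14.1 and 15.8 TPM in the NCI-H2228 libraries, and SPRY2 had 39.8, 40.7 and 45.7 TPM in SNU2535 and 21.8, 24.5 and 25.4 TPM in NCI-H2228. SPRY4 differed by only 0.20 ± 0.053. On the lower side, the ETS factor ETV5 had 34.3, 32.6 and 33.9 TPM in the SNU2535 libraries, against 126, 119 and 116 TPM in the NCI-H2228 libraries, and ETV4 differed by −0.72 ± 0.045. DUSP4 had 34.8, 36.7 and 37.6 TPM in the SNU2535 libraries, against 89, 83.1 and 87.1 TPM in the NCI-H2228 libraries. PHLDA1 and EPHA2 were lower in SNU2535, at −0.49 ± 0.038 and −0.26 ± 0.053. Thus DUSP6 and DUSP4, phosphatases of the same pathway, stood on opposite sides.

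With TRI-611 the order of these genes between the lines was another one. In the TRI-611 libraries the SNU2535 minus NCI-H2228 difference was −1.59 for DUSP6, −2.29 for SPRY4 and −0.23 for SPRY2, below 0 where it had been above 0 without the drug. For PHLDA1 and EPHA2 it was −2.91 and −1.46, further below 0 than without the drug. CCND1 and EPHA4 stayed higher in SNU2535, at 1.63 and 0.78. The change with TRI-611 itself was not tested between the lines here. Along the cascade, BRAF did not pass the test (−0.10 ± 0.063, adjusted p = 0.196). NRAS and ARAF were lower in SNU2535, at −1.20 ± 0.073 and −1.22 ± 0.041. DUSP10, a phosphatase of p38 and JNK, had 100, 103 and 99.3 TPM in the SNU2535 libraries, against 8.72, 8.64 and 8.62 TPM in the NCI-H2228 libraries. SPRED1, SPRY1 and DUSP5 were higher by 0.43, 0.37 and 0.30, of which DUSP5 lost its call without NCI-H2228 replicate 1 or 2 or SNU2535 replicate 2 (0.28 to 0.29). SPRED3, a RAS inhibitor, was lower in SNU2535, with 0.37, 0.482 and 0.252 TPM in SNU2535 and 10.4, 10.2 and 11.1 TPM in NCI-H2228. ERRFI1, an EGFR inhibitor, did not pass the test, with 462, 447 and 446 TPM in SNU2535 and 447, 433 and 469 TPM in NCI-H2228.

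Further downstream, 26 immediate early genes, the first that growth signals turn on, were tested. Of them, 16 (61.5%) were called higher in SNU2535 and 6 (23.1%) lower, against 33.2% and 43.9% of all tested genes. Of 26 JAK and STAT pathway genes, 8 were called higher and 13 lower, close to the shares of all tested genes (30.8% and 50%, against 33.2% and 43.9%). FOS had 13.5, 18.6 and 38.8 TPM in the SNU2535 libraries, against 8.8, 8.25 and 10.8 TPM in the NCI-H2228 libraries. Its call was lost without NCI-H2228 replicate 1 or 2 (1.11 and 1.07). At 1.14, the call was also lost with a mean of 5 TPM or more and among protein-coding genes only. FOSL1, an AP-1 factor, was lower, at −1.09 ± 0.036. JUN did not pass the test (−0.02 ± 0.04, adjusted p = 0.637). MYC was higher by 0.76 ± 0.057, and ATF3 by 0.35 ± 0.07, while IER3 was lower, at −1.19 ± 0.081. BTG2, an antiproliferative p53 and growth factor target, had 49.8, 56.7 and 55.8 TPM in the SNU2535 libraries, against 2.5, 2.38 and 2.17 TPM in the NCI-H2228 libraries. STAT3 and STAT6 did not pass the test, and STAT3 had 130, 130 and 131 TPM in SNU2535 and 128, 125 and 131 TPM in NCI-H2228. Both were called higher after median-ratio scaling (0.15 and 0.16) and quantile normalization (0.13 and 0.15). The receptor chains IL6ST and IL6R were lower, at −1.78 ± 0.052 and −1.44 ± 0.073, and so was SOCS3, the STAT3 feedback gene, at −0.64 ± 0.055. PIM1, a STAT-induced kinase, was higher by 0.76 ± 0.061. Among 24 PI3K and mTOR genes tested, PIK3CA was lower, at −1.05 ± 0.064, and PIK3R3 and PHLPP1 were higher by 2.26 and 2.37. Of the FOXO targets, PIK3IP1 had 15, 13.3 and 12.6 TPM in the SNU2535 libraries, against 1.2, 1.54 and 1.41 TPM in the NCI-H2228 libraries, and TXNIP did not pass the test (−0.02 ± 0.034, adjusted p = 0.662).

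In the developmental pathways some ligands and secreted inhibitors were expressed in 1 line and nearly absent in the other. In the TGF-beta and BMP pathway, 37 genes were tested, 12 (32.4%) called higher and 19 (51.4%) lower. Those shares were close to the 33.2% and 43.9% of all tested genes. NOG, the BMP antagonist noggin, had 1.56, 1.77 and 1.07 TPM in SNU2535 and 116, 118 and 131 TPM in NCI-H2228. BMP7 had 5.5, 5.57 and 5.43 TPM in the SNU2535 libraries, against 0.0542, 0 and 0.0276 TPM in the NCI-H2228 libraries, and GDF15 had 190, 223 and 211 TPM in the SNU2535 libraries, against 36.2, 41 and 39.5 TPM in the NCI-H2228 libraries. The receptor TGFBR2 and the transducer SMAD3 were lower in SNU2535, at −0.81 ± 0.037 and −0.79 ± 0.045, while SMAD2 and SMAD4 did not pass the test. SMAD2, at −0.13, was called lower in a fit of all 18 libraries and without the trend and robust settings. ID1 and ID3 were lower and ID2 higher, at −1.06, −0.44 and 1.28. Among 30 Wnt genes, the secreted inhibitor SFRP1 was listed at 0 in each SNU2535 library and had 46.5, 41.1 and 44.3 TPM in NCI-H2228, and DKK3, another, had 0.184, 0.105 and 0.319 TPM in SNU2535 and 54.8, 52.1 and 55.5 TPM in NCI-H2228. WNT7B and the receptor LGR4 were higher in SNU2535 by 1.74 ± 0.046 and 1.80 ± 0.037, as were the feedback gene RNF43 and the factor LEF1, by 1.38 ± 0.065 and 1.54 ± 0.14. WNT5A and DKK1 were lower, at −0.67 ± 0.14 and −1.83 ± 0.044. In the Notch pathway the ligand DLL1 had 0.192, 0.164 and 0.25 TPM in the SNU2535 libraries, against 32.2, 31.2 and 33.3 TPM in the NCI-H2228 libraries, and JAG2 had 88.9, 96.5 and 89.8 TPM in the SNU2535 libraries, against 15.1, 14.5 and 18.4 TPM in the NCI-H2228 libraries. NOTCH3 was higher and NOTCH1 lower, at 1.12 ± 0.058 and −0.58 ± 0.094, and the targets HES1 and HEY1 were lower, at −0.37 ± 0.055 and −1.71 ± 0.14. Among YAP and TEAD genes, TEAD2 had 0.104, 0.355 and 0.135 TPM in the SNU2535 libraries, against 29.9, 24.4 and 27.2 TPM in the NCI-H2228 libraries and ANKRD1, a YAP target, had 10.1, 11.6 and 9.44 TPM in the SNU2535 libraries, against 68.8, 73.2 and 71.7 TPM in the NCI-H2228 libraries. YAP1 and its relative WWTR1 were lower, at −0.40 ± 0.042 and −0.84 ± 0.04, and VGLL1, an epithelial TEAD partner, and the scaffold AMOT were higher by 4.30 and 4.02.

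**Figure D3:**
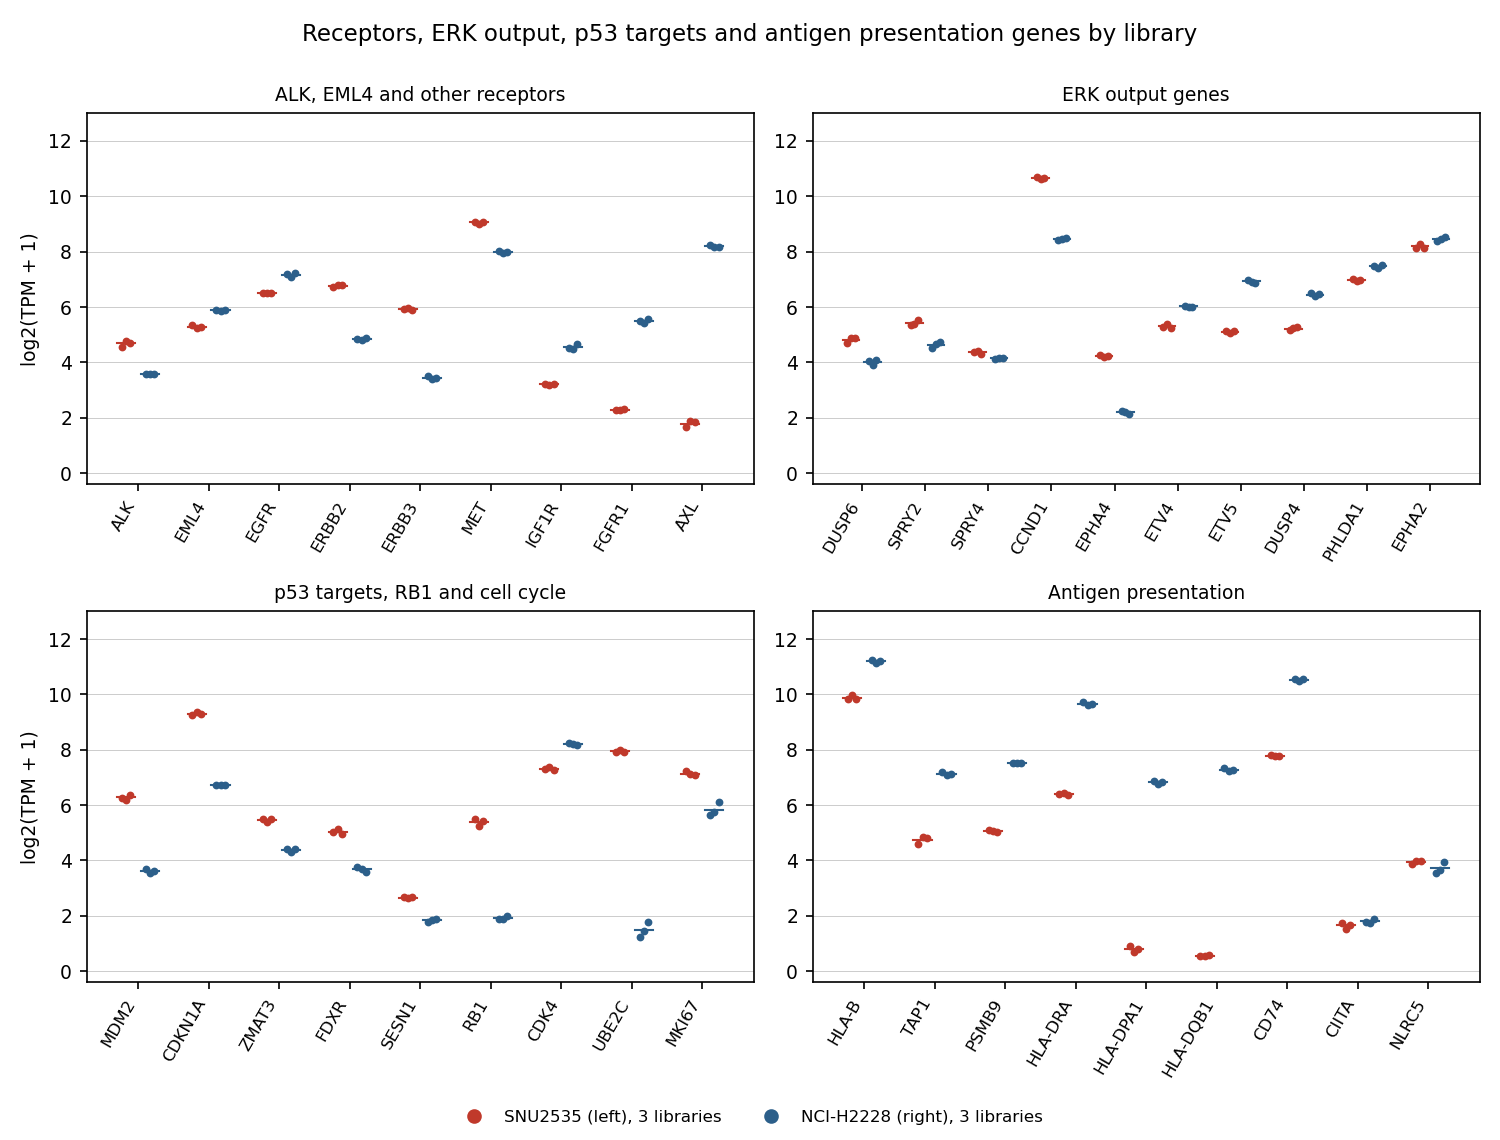
Level of receptor, ERK output, p53 and cell cycle, and antigen presentation genes as log2(TPM + 1) in each untreated library, with SNU2535 on the left of each gene and NCI-H2228 on the right, and a bar for the mean of 3 libraries. AXL and FGFR1 sit higher in NCI-H2228 and ERBB2 and ERBB3 higher in SNU2535, the ERK output genes are split, MDM2, RB1 and UBE2C are higher in SNU2535, and HLA-DPA1 and HLA-DQB1 are under 1 TPM in SNU2535 while CIITA and NLRC5 are close in both lines.

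Nearly all antigen presentation genes were lower in SNU2535. All 26 listed genes were tested, 24 were called lower and 0 higher, and 18 (69.2%) were lower by 2-fold or more, against 43.9% called lower and 16.5% lower by 2-fold among all tested genes. The median difference was −1.44, and −1.50 to −1.38 within batches, and 3 of the genes were below 1 TPM in every SNU2535 library. Class II genes, which present peptides to CD4+ T cells and are usually on in professional antigen-presenting cells, showed the wide gaps. HLA-DRA had 84.3, 85.5 and 81.2 TPM in the SNU2535 libraries, against 838, 783 and 797 TPM in the NCI-H2228 libraries. HLA-DPA1 had 0.863, 0.614 and 0.725 TPM in the SNU2535 libraries, against 115, 109 and 112 TPM in the NCI-H2228 libraries. HLA-DQB1 had 0.474, 0.468 and 0.493 TPM in the SNU2535 libraries, against 160, 151 and 155 TPM in the NCI-H2228 libraries. CD74, the invariant chain, had 222, 219 and 220 TPM in the SNU2535 libraries, against 1522, 1429 and 1508 TPM in the NCI-H2228 libraries. SNU2535 thus had HLA-DRA and CD74 but under 1 TPM of HLA-DPA1 and HLA-DQB1. CIITA, the transactivator of class II genes, did not pass the test, with 2.33, 1.89 and 2.22 TPM in SNU2535 and 2.41, 2.31 and 2.71 TPM in NCI-H2228 (adjusted p = 0.276). NLRC5, the corresponding factor for class I, did not pass it either (0.23 ± 0.11, adjusted p = 0.0842), although it was called higher in SNU2535 without NCI-H2228 replicate 3 (0.35), after median-ratio scaling (0.35) or quantile normalization (0.33), and, at 0.23, among protein-coding genes only or in a fit of all 18 libraries.

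Class I genes differed less. HLA-B had 906, 1010 and 905 TPM in the SNU2535 libraries, against 2413, 2268 and 2365 TPM in the NCI-H2228 libraries, and HLA-C differed by −1.47 ± 0.043. B2M, the shared light chain on chromosome 15, differed by −0.11 ± 0.032 (adjusted p = 0.0115), close to the median of all genes, and by 0.01 after median-ratio scaling. The peptide transporter TAP1 had 23.1, 27.7 and 26.8 TPM in the SNU2535 libraries, against 146, 136 and 138 TPM in the NCI-H2228 libraries. The immunoproteasome gene PSMB9 had 33.1, 32.8 and 31.8 TPM in the SNU2535 libraries, against 181, 181 and 182 TPM in the NCI-H2228 libraries, and PSMB8 differed by −1.12 ± 0.035. HLA genes are near copies of each other, so the counts of single HLA genes are uncertain. Of the 26 genes, 19 lie on chromosome 6, whose tested protein-coding genes had a median difference of −0.855, and these had a median of −2.04 with 16 called lower by 2-fold. The other 7 had a median of −0.74, and 2 of them, CD74 and ERAP2, were lower by 2-fold. The part of chromosome 6 in the difference was not tested.

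Interferon-stimulated genes differed in both directions. All 45 were tested, 19 were called higher in SNU2535 and 22 lower, with 4 (8.89%) and 11 (24.4%) at 2-fold or more, against 13% and 16.5% of all tested genes. IFITM1 had 78.3, 84 and 80.9 TPM in the SNU2535 libraries, against 426, 405 and 403 TPM in the NCI-H2228 libraries. IFI35 and GBP4 were lower in SNU2535, at −3.14 and −2.41, and GBP3, CMPK2 and RSAD2 were higher by 3.59, 2.01 and 1.94. MX1, OAS1 and ISG15 were lower, at −0.94, −0.56 and −0.37, and IRF7, IFIT1 and IFI27 were higher by 1.11, 0.71 and 0.61. IFI6 did not pass the test, at 78.3, 92.6 and 82.7 TPM in SNU2535 and 80.5, 92.5 and 86 TPM in NCI-H2228. IDO1, an interferon-inducible tryptophan enzyme, had 0.999, 1.14 and 1.24 TPM in the SNU2535 libraries, against 100, 88.4 and 89.4 TPM in the NCI-H2228 libraries. The checkpoint ligand CD274, PD-L1, had 25.9, 25.4 and 28.4 TPM in the SNU2535 libraries, against 13.6, 14.3 and 15.4 TPM in the NCI-H2228 libraries. CD274 was thus higher in SNU2535 while IDO1 was close to 1 TPM there. Among chemokines, CCL2 had 0.547, 0.444 and 0.677 TPM in the SNU2535 libraries, against 43.9, 55.8 and 46.7 TPM in the NCI-H2228 libraries, and CXCL5 and CXCL8 were lower in SNU2535, at −4.10 ± 0.096 and −0.97 ± 0.061. CXCL1 and IL6 were lower, at −1.95 and −1.23. CXCL16 and CXCL14 were higher by 2.68 ± 0.056 and 4.69 ± 0.11, and IL32 and LIF by 1.80 and 0.80. Of 19 further immune ligand genes tested, 8 (42.1%) were called higher and 11 (57.9%) lower, against 33.2% and 43.9% of all tested genes. VTCN1, the checkpoint protein B7-H4, had 16.1, 12.4 and 14.4 TPM in SNU2535 and 0.291, 0.277 and 0.247 TPM in NCI-H2228, and the NK cell ligands ULBP1 and ULBP2 were lower in SNU2535, at −2.14 and −1.73.

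Genes of the p53 response were mostly higher in SNU2535. Of 30 listed p53 targets and cell cycle inhibitors, 28 were tested, 26 were called higher and 1 lower, and 17 (60.7%) were higher by 2-fold or more, against 33.2% called higher and 13% higher by 2-fold among all tested genes, with a median difference of 1.26 (1.17 to 1.32 within batches). MDM2, the target that feeds back on p53, had 76.3, 72.1 and 81.9 TPM in the SNU2535 libraries, against 12, 10.8 and 11.3 TPM in the NCI-H2228 libraries. CDKN1A, the cell cycle inhibitor p21, had 607, 655 and 632 TPM in the SNU2535 libraries, against 104, 106 and 105 TPM in the NCI-H2228 libraries. The death genes BAX and BBC3 had 247, 267 and 238 TPM and 28.2, 34.4 and 31.4 TPM in SNU2535, against 48.6, 48.1 and 48.2 TPM and 2.4, 2.6 and 1.93 TPM in NCI-H2228. The lines did not overlap in any of these genes, which also held for 78.9% of all tested genes. SPATA18, a mitochondrial quality gene, was on in SNU2535, with 20.1, 20.9 and 21 TPM, and under 0.1 TPM in NCI-H2228. ZMAT3 differed by 1.08 ± 0.049 and FDXR by 1.36 ± 0.065. CCNG1 did not pass the test, with 82.1, 79.7 and 86.8 TPM in SNU2535 and 90.8, 83.9 and 77.5 TPM in NCI-H2228. CDKN1C, the inhibitor p57 and no classical p53 target, was the member called lower, with 0.84, 1.77 and 1.3 TPM in SNU2535 and 14.3, 12.8 and 13.5 TPM in NCI-H2228. DRAM1, a p53 target named above with the lung lineage list and not counted here, was lower in SNU2535 as well.

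RB1, the retinoblastoma protein that restrains E2F, had 43.8, 36.7 and 42.1 TPM in the SNU2535 libraries, against 2.67, 2.68 and 2.96 TPM in the NCI-H2228 libraries. CDKN2A and CDKN2B, inhibitors encoded side by side on chromosome 9, were listed at 0 in all 6 libraries. MTAP, the methylthioadenosine enzyme encoded next to them, had 10.5, 9.6 and 10 TPM in SNU2535 and was listed at 0 in each NCI-H2228 library.

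The replication genes were higher in SNU2535 as a list, the mitotic genes less so. Of 30 genes of G1 and S phase, 24 (80%) were called higher and 4 (13.3%) lower, against 33.2% and 43.9% of all tested genes, with a median of 0.87. MCM5 and MCM7, of the replicative helicase, had 137, 146 and 141 TPM and 364, 398 and 373 TPM in SNU2535, against 42.7, 42.1 and 43.3 TPM and 142, 143 and 142 TPM in NCI-H2228. E2F2 and UHRF1 were higher by 2.17 ± 0.084 and 1.75 ± 0.074, and PCNA and MCM2 by 0.69 ± 0.029 and 0.32 ± 0.041. The 4 lower genes were E2F3, CCND3, POLA1 and CDK4, at −1.17, −0.91, −0.91 and −0.90. CDK4 and CCND1, partner proteins, therefore ran in opposite directions, with CDK4 at 158, 165 and 154 TPM in SNU2535 and 305, 297 and 290 TPM in NCI-H2228. CDK6 was low, with 8.53, 7.31 and 8.36 TPM in SNU2535 and 2.9, 2.08 and 2.57 TPM in NCI-H2228, CCND2 was under 2 TPM, and CCNE1 did not pass the test (−0.01 ± 0.055, adjusted p = 0.913).

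Of 27 genes of G2 and mitosis, 17 (63%) were called higher and 6 (22.2%) lower, and 6 (22.2%) were higher by 2-fold or more, against 13% of all tested genes. Most differed little. TOP2A and PLK1 differed by 0.14 ± 0.038 and −0.30 ± 0.03. CCNB1, cyclin B1, differed by 0.09 ± 0.035, and lost its call with batch as a block (adjusted p = 0.0517) and, at 0.08, without NCI-H2228 replicate 1 or 3 or SNU2535 replicate 2 or 3. MKI67, the proliferation antigen, had 148, 139 and 134 TPM in the SNU2535 libraries, against 48.6, 52.7 and 68.9 TPM in the NCI-H2228 libraries. The exception in size was UBE2C, the ubiquitin-conjugating enzyme of the anaphase-promoting complex, with 243, 255 and 243 TPM in the SNU2535 libraries, against 1.37, 1.74 and 2.44 TPM in the NCI-H2228 libraries. CCNB1 had 366, 387 and 369 TPM in the same NCI-H2228 libraries. The spindle gene TPX2 was lower in SNU2535, with 247, 232 and 243 TPM in the SNU2535 libraries, against 561, 549 and 540 TPM in the NCI-H2228 libraries. UBE2C and TPX2 both lie on chromosome 20, whose median difference was −0.195. Among survival genes, BCL2L1 and MCL1 differed by −0.34 ± 0.028 and 0.29 ± 0.032, BCL2L11 did not pass the test (−0.11 ± 0.076, adjusted p = 0.221), and the death receptor FAS had 54.9, 59.1 and 59.6 TPM in SNU2535 and 13.1, 14.2 and 14.1 TPM in NCI-H2228. BIK and BMF, killers of the BH3-only kind, were higher by 2.24 and 1.48, and BAK1 was lower, at −1.33.

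In central carbon metabolism a smaller share of genes than over all tested genes was higher in SNU2535 by 2-fold or more. Of 35 glycolysis and pentose phosphate genes tested, 12 (34.3%) were called higher in SNU2535 and 17 (48.6%) lower. These shares were near the 33.2% and 43.9% of all tested genes. By 2-fold or more, 1 (2.86%) was higher and 5 (14.3%) were lower, against 13% and 16.5% of all. The 1 higher was FBP1, the gluconeogenic enzyme fructose bisphosphatase, with 850, 845 and 894 TPM in the SNU2535 libraries, against 58.5, 52.3 and 56.6 TPM in the NCI-H2228 libraries. The glucose transporter SLC2A3 was under 0.03 TPM in SNU2535, against 24.6, 21.3 and 23.6 TPM in NCI-H2228, while SLC2A1 was abundant in both, at 234, 256 and 241 TPM in SNU2535 and 307, 300 and 321 TPM in NCI-H2228. The lactate transporter SLC16A1 had 13.4, 12.7 and 12.6 TPM in the SNU2535 libraries, against 122, 116 and 113 TPM in the NCI-H2228 libraries. LDHA was higher by 0.72 ± 0.028 and PKM lower, at −0.55 ± 0.031. HK1, PFKP and LDHB were lower, at −0.46, −0.63 and −0.33, and TALDO1, of the pentose phosphate pathway, was higher by 0.24. HK2 did not pass the test, with 56.4, 59.2 and 58.5 TPM in SNU2535 and 56.9, 54.4 and 62.3 TPM in NCI-H2228. Of 72 nuclear genes of oxidative phosphorylation tested, 33 (45.8%) were called higher and 26 (36.1%) lower. By 2-fold, 3 differed, against 29.5% of all tested genes. They were ATP5MF, UQCR10 and SDHA, higher by 1.58, 1.55 and 1.29. Of the 13 protein genes of mitochondrial DNA, 2 were called higher and 2 lower, none of them by 2-fold. MT-ND4 and MT-ND5 were higher by 0.44 and 0.49, and MT-CO2 and MT-ND1 were lower, at −0.92 and −0.44. With batch as a block MT-ND4, MT-ND5 and MT-ND1 lost their calls (limma adjusted p = 0.0726, 0.0816 and 0.0673). MT-ND4 and MT-ND5 also lost them without replicate 1 or 3 of either line (0.33 to 0.45 and 0.35 to 0.50), and MT-ND1 without replicate 2 of either line or SNU2535 replicate 3 (−0.40 to −0.30).

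Genes of sterol and fat synthesis were mostly higher in SNU2535. Of 27 cholesterol genes, 18 (66.7%) were called higher and 6 (22.2%) lower, against 33.2% and 43.9% of all tested genes. At 2-fold or more, 7 (25.9%) were higher and 1 (3.7%) lower, against 13% and 16.5% of all. SREBF2, the sterol factor, had 218, 228 and 228 TPM in the SNU2535 libraries, against 69.9, 64.5 and 67.1 TPM in the NCI-H2228 libraries. HMGCS1, an early step of synthesis, differed by 1.68 ± 0.035. FDFT1, squalene synthase, was higher by 2.24, and INSIG1 and ABCA1 by 0.66 and 0.44. SQLE did not pass the test (−0.03 ± 0.061, adjusted p = 0.711). SREBF2 lies on chromosome 22, whose median difference was 0.851, and that chromosome's part in its difference was not tested. Of 30 fatty acid genes tested, 19 (63.3%) were called higher and 9 (30%) lower. SCD, the stearoyl desaturase, had 1750, 1701 and 1700 TPM in the SNU2535 libraries, against 624, 558 and 595 TPM in the NCI-H2228 libraries. FASN and ACACA were higher by 0.95 ± 0.047 and 0.71 ± 0.045. FADS2, the desaturase of polyunsaturated fat, had 10, 10.4 and 10.5 TPM in the SNU2535 libraries, against 93.5, 89 and 89.6 TPM in the NCI-H2228 libraries. The lipid droplet coat gene PLIN2 had 2.96, 2.98 and 3.04 TPM in the SNU2535 libraries, against 74.5, 66.5 and 73.5 TPM in the NCI-H2228 libraries. CPT1A, which admits fatty acids to mitochondria, was lower, at −2.03 ± 0.14. SREBF1, the factor of fat synthesis, was higher by 2.39 ± 0.046, ACSL1 by 2.21 and SCD5 by 2.81, and ELOVL6 and ACSL4 were lower, at −0.43 and −0.20, the second of which was −0.07 and not called after median-ratio scaling. SCD, FASN and ACACA were thus higher, and FADS2, PLIN2 and CPT1A lower, in SNU2535.

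Some NRF2 targets were abundant in both lines, and the list differed in both directions. Of 38 NRF2 and glutathione genes tested, 16 (42.1%) were called higher in SNU2535 and 20 (52.6%) lower, against 33.2% and 43.9% of all. NQO1 had 3901, 4003 and 4144 TPM in the SNU2535 libraries, against 3215, 3020 and 3091 TPM in the NCI-H2228 libraries, a difference of 0.37 ± 0.033 that was 0.10 and not called after quantile normalization. AKR1B10 did not pass the test, with 1493, 1540 and 1557 TPM in SNU2535 and 1500, 1539 and 1542 TPM in NCI-H2228, and was called higher after median-ratio scaling (0.12) but lower after quantile normalization (−0.18). TXNRD1, thioredoxin reductase, had 1024, 1011 and 1059 TPM in the SNU2535 libraries, against 2447, 2297 and 2294 TPM in the NCI-H2228 libraries. GCLM, a subunit of the glutathione synthesis enzyme, had 65.8, 64.6 and 70.7 TPM in the SNU2535 libraries, against 356, 354 and 357 TPM in the NCI-H2228 libraries, and the cystine transporter SLC7A11 had 54.3, 48.2 and 52.8 TPM in SNU2535 and 187, 174 and 178 TPM in NCI-H2228. GPX2, a glutathione peroxidase of epithelia, had 628, 656 and 677 TPM in the SNU2535 libraries, against 57.4, 50.5 and 52.1 TPM in the NCI-H2228 libraries, and GPX3 had 1765, 1787 and 1721 TPM in SNU2535 and 189, 174 and 164 TPM in NCI-H2228. The peroxidases GPX2 and GPX3 were thus higher in SNU2535, and TXNRD1, GCLM and SLC7A11 lower. GSTP1, a glutathione transferase, was higher by 1.66 ± 0.032, and NFE2L2, which encodes NRF2, by 0.28 ± 0.04, while GCLC was lower, at −0.37 ± 0.03. HMOX1 was higher by 1.09 ± 0.04 and AKR1C1, whose paralogues can share its reads, was lower, at −1.58 ± 0.036.

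The 3 enzymes of serine synthesis were lower in SNU2535. Of 45 genes of serine, one-carbon and nucleotide synthesis, 15 (33.3%) were called higher and 26 (57.8%) lower, 5 (11.1%) and 11 (24.4%) of them by 2-fold or more. The share called higher was close to the 33.2% of all tested genes, and 43.9% of all were called lower. By 2-fold or more, 13% of all tested genes were higher and 16.5% lower, so the share higher by 2-fold was near that of all. PHGDH, the entry enzyme of serine synthesis, had 19.5, 19.5 and 16.9 TPM in the SNU2535 libraries, against 145, 134 and 136 TPM in the NCI-H2228 libraries. PSAT1 and PSPH, the next steps, differed by −1.55 ± 0.051 and −1.71 ± 0.068. SHMT2 and MTHFD2, which carry the carbon on in mitochondria, were lower too, at −1.04 and −0.54. ALDH1L2, a mitochondrial folate enzyme, had at most 0.0182 TPM in SNU2535 and 35.9, 37 and 39.5 TPM in NCI-H2228. NNMT, which spends methyl groups on nicotinamide, had 0.0531, 0.423 and 0.0921 TPM in the SNU2535 libraries, against 262, 233 and 225 TPM in the NCI-H2228 libraries. RRM2, which makes deoxynucleotides, was higher in SNU2535, with 237, 233 and 241 TPM in SNU2535 and 48, 45.7 and 48.3 TPM in NCI-H2228. GLUL, glutamine synthetase, was higher by 0.43 ± 0.046, ASS1, of the urea cycle, was lower, at −1.02 ± 0.05, and ASNS did not pass the test (−0.06 ± 0.059, adjusted p = 0.36). Hypoxia genes were mostly lower in SNU2535 too. Of 22, 16 (72.7%) were called lower in SNU2535 and 1 higher, against 43.9% and 33.2% of all tested genes. By 2-fold or more, 7 (31.8%) were lower and 1 (4.55%) higher, against 16.5% and 13% of all. CA12, a membrane carbonic anhydrase, had 0.106, 0.266 and 0.147 TPM in the SNU2535 libraries, against 158, 141 and 156 TPM in the NCI-H2228 libraries. CA9 had 46.4, 45.8 and 43.7 TPM in SNU2535 and 103, 93 and 98.4 TPM in NCI-H2228, ANGPTL4 had 0.125, 0.0711 and 0.271 TPM in SNU2535 and 39.3, 41 and 41.2 TPM in NCI-H2228, STC2, EPAS1 and NDRG1 were lower, at −2.07, −0.36 and −0.44, and the exception was ADM, adrenomedullin, with 34.5, 32.1 and 33.8 TPM in SNU2535 and 4.75, 3.09 and 3.19 TPM in NCI-H2228.

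Xenobiotic enzyme genes differed in both directions. Of 27 genes tested, 12 (44.4%) were called higher in SNU2535 and 14 (51.9%) lower, against 33.2% and 43.9% of all tested genes. Of the 27, 2 were below 1 TPM in every SNU2535 library and 5 in every NCI-H2228 library, and so passed the filter through 1 line alone. ALDH1A1, a retinal dehydrogenase, had 1.25, 1.49 and 1.6 TPM in the SNU2535 libraries, against 47.3, 42 and 48.2 TPM in the NCI-H2228 libraries, and its relative ALDH1A3 had 84.7, 82.1 and 87.2 TPM in the SNU2535 libraries, against 9.57, 9.89 and 10.1 TPM in the NCI-H2228 libraries. These relatives thus ran in opposite directions. CYP1B1 and CYP1A1, targets of the aryl hydrocarbon receptor, were lower in SNU2535, at −2.68 ± 0.033 and −1.56 ± 0.15, and AHR itself at −0.48 ± 0.06. The drug efflux transporter ABCG2 had 11.1, 10.7 and 13.4 TPM in SNU2535 and 39.7, 34.1 and 37.3 TPM in NCI-H2228.

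**Figure D4:**
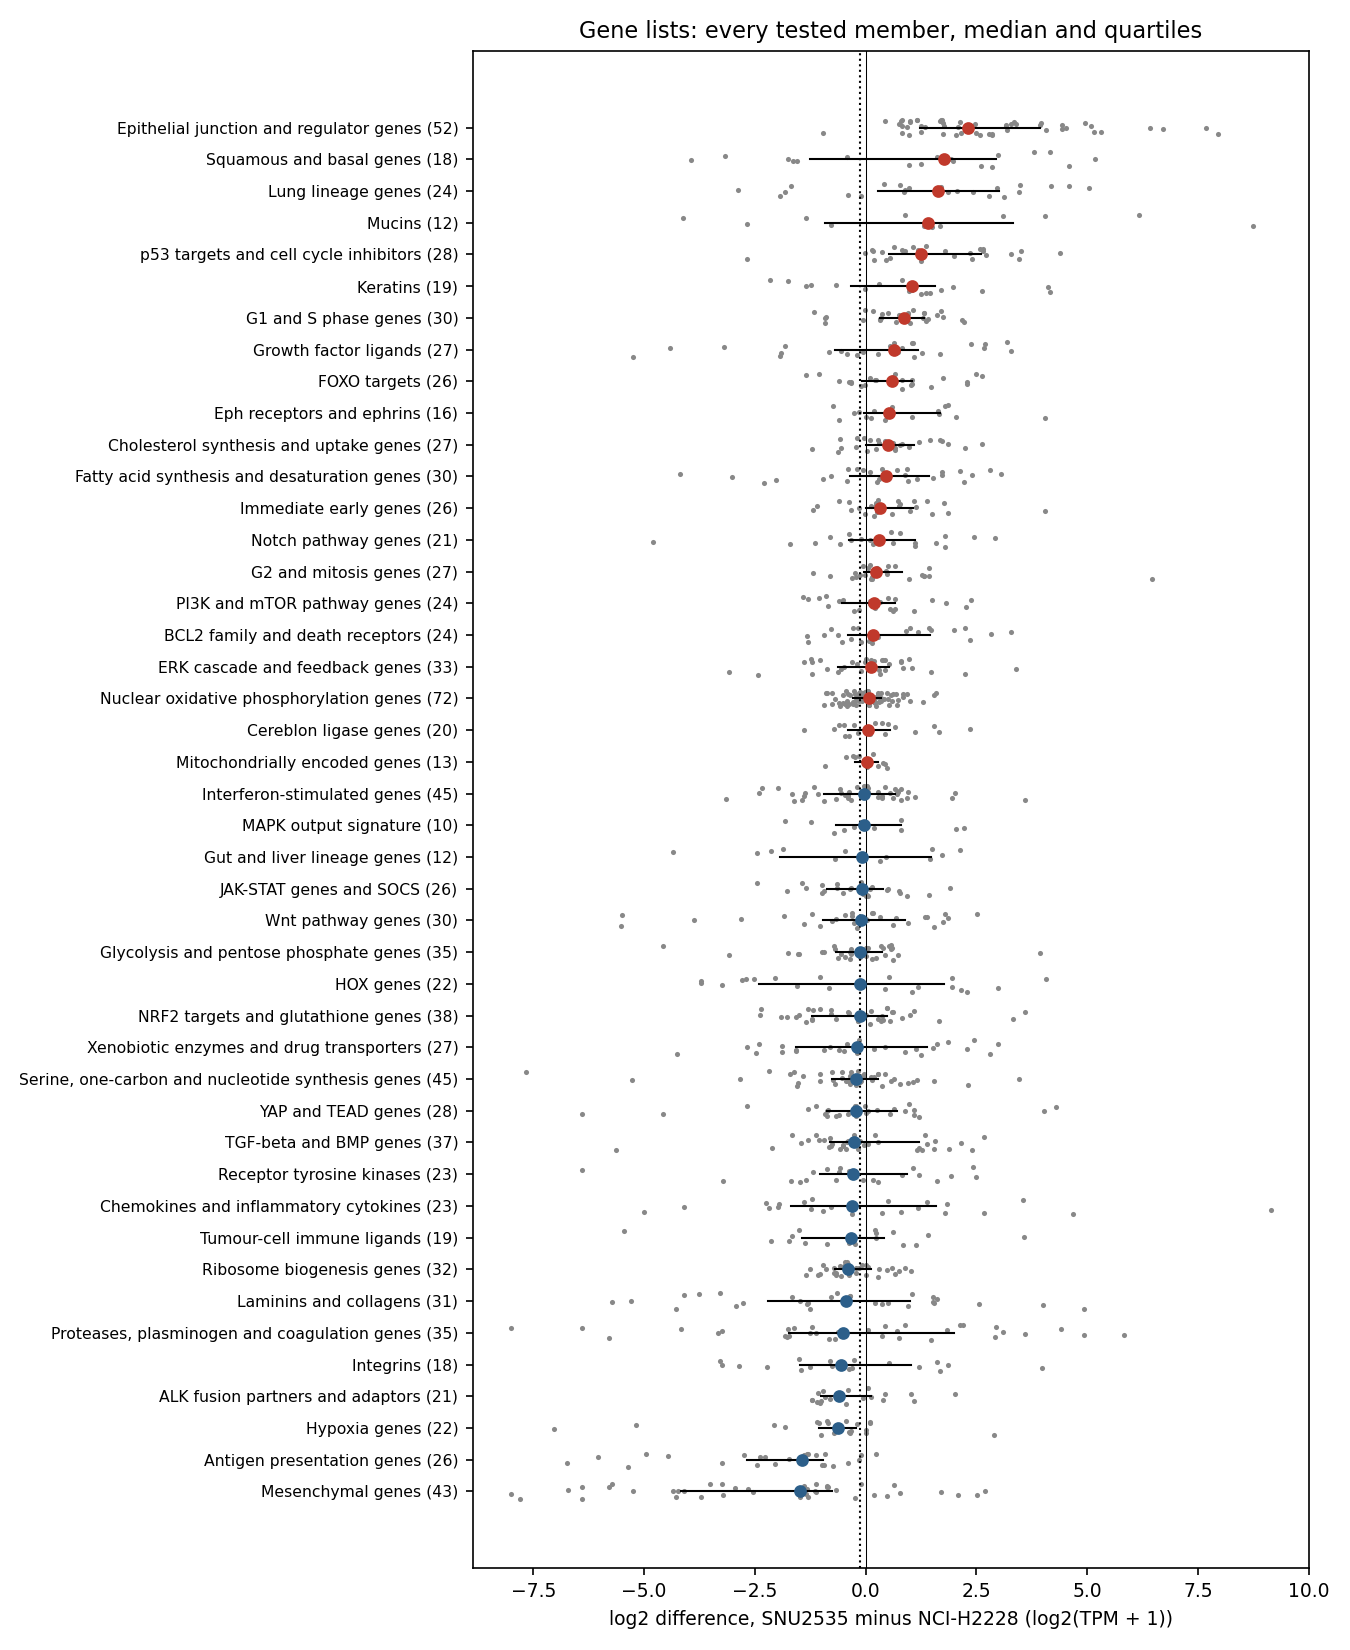
Log2 difference, SNU2535 minus NCI-H2228, of every tested member (grey points) of the gene lists with at least 10 tested members, with the median (large point) and quartiles (line) of each list and the number tested in parentheses. The dotted line is the median of all tested genes, −0.13. Epithelial junction genes have the highest median, 2.31, and mesenchymal and antigen presentation genes the lowest, −1.49 and −1.44.

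Genes of the cereblon ubiquitin ligase, which many molecular glue degraders use, were expressed in both lines. Of 20 tested, 9 (45%) were called higher in SNU2535 and 8 (40%) lower, against 33.2% and 43.9% of all tested genes. Their median difference was 0.066. CRBN, the substrate receptor, had 4.91, 4.85 and 4.73 TPM in the SNU2535 libraries, against 6.66, 5.76 and 5.76 TPM in the NCI-H2228 libraries, a difference of −0.27 ± 0.083 (adjusted p = 0.0172). The call was lost after median-ratio scaling (−0.17) and without NCI-H2228 replicate 1 (−0.21) or SNU2535 replicate 3 (−0.26). DDB1, CUL4A and CUL4B, of the ligase core, differed by 0.21 ± 0.039, −0.38 ± 0.041 and −0.49 ± 0.052. The ring subunit RBX1 had 83.4, 96.3 and 88.8 TPM in SNU2535 and 31.3, 30.2 and 27.8 TPM in NCI-H2228. UBE2G1, an E2 enzyme of this ligase, was lower, at −0.18 ± 0.057, which was lost after median-ratio scaling (−0.06) and without NCI-H2228 replicate 1 (−0.13) or SNU2535 replicate 2 (−0.15), and CSNK1A1, a known substrate, did not pass the test (0.04 ± 0.034, adjusted p = 0.279). GSPT1, a known substrate of some such degraders, was lower in SNU2535, with 145, 139 and 143 TPM in SNU2535 and 203, 195 and 194 TPM in NCI-H2228. The labels do not say which ligase TRI-611 uses.

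Differences were not spread evenly over the genome. The median difference per chromosome, over tested protein-coding genes, was 0.851 on chromosome 22 (313 genes, 84.7% of them positive) and −0.855 on chromosome 6 (675 genes, 16.9% positive). Within the 3 batches these medians were 0.846 to 0.939 and −0.860 to −0.838. On chromosome 6, 47 of the 675 genes were called higher in SNU2535 by 2-fold and 277 lower. On chromosome 22, 132 of the 313 were higher and 18 lower. Over all tested genes, 13% were higher and 16.5% lower by 2-fold. Chromosome 14 (0.453) and chromosome 15 (−0.487) came next. In windows of 30 neighbouring genes, 418 in all, the median of window medians was −0.144, with quartiles at −0.417 and 0.201. The 3 lowest were the last window of chromosome 6, from 166999182 to 170584692 (GRCh38, 15 genes, median −1.81), the class II region of the same chromosome, from 32115264 to 33272047 (−1.71), and chromosome 12 from 104064457 to 109093631 (−1.40). In the first, 14 of 15 genes were lower in SNU2535, among them DLL1, TBP and PSMB1, at −4.79, −1.85 and −1.81. The chromosome 12 window holds ALDH1L2 and TXNRD1. The 3 highest were chromosome 22 from 39519695 to 41998221 (1.14), which holds SREBF2, EP300 and RBX1, chromosome 19 from 49496365 to 50476753 (1.11), which holds NAPSA, and chromosome 14 from 24171853 to 31420582 (1.10). EP300, a histone acetyltransferase, had 52.7, 56.5 and 54.3 TPM in SNU2535 and 21.1, 21.1 and 24.2 TPM in NCI-H2228. In the TRI-611 libraries the 6 windows kept their sign, with medians of −1.84, −1.81, −1.57, 1.07, 1.05 and 1.00 in the order given. The order depended on the window size. In windows of 50 genes the highest were chromosome 22 from 39021113 to 42649568 (0.99), chromosome 19 from 45815410 to 48646312 (0.989) and chromosome 5 from 92151 to 32313009 (0.963). The window on chromosome 14 from 23953586 to 34875647 had 0.88. On chromosome 19, the windows from 48695971 to 49929539 and from 49906825 to 52962911, which both overlap the window of 30 genes named above, had 0.961 and 0.674. The lowest of that size were again the end of chromosome 6 (−1.62) and its class II region (−1.54), followed by chromosome 6 from 26383096 to 30597179 (−1.09). DNA copy number was not measured in these files, so its part in these regional differences was not tested.

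**Figure D5:**
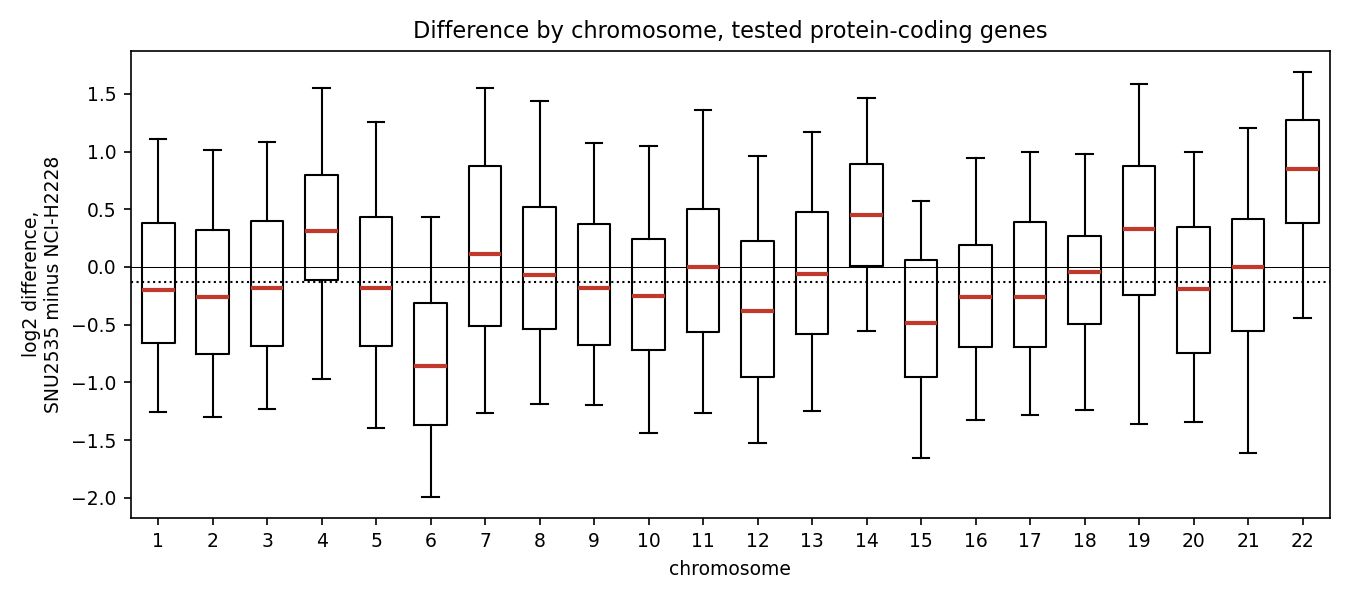
Log2 difference, SNU2535 minus NCI-H2228, of tested protein-coding genes by chromosome, with the median (red), quartiles (box) and the 10th to 90th percentile (whiskers), and the median of all tested genes as a dotted line. Chromosome 6 lies lowest, with a median of −0.855, and chromosome 22 highest, at 0.851.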

How the data were processed

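Poly-A RNA of 3 untreated SNU2535 and 3 untreated NCI-H2228 libraries was compared. The deposited table gives transcripts per 1000000 (TPM) for 57500 Ensembl genes in 18 libraries, each column summing to 1000000. Per the submitters' processing notes, fastp 0.23.1, STAR 2.5.2b, featureCounts of Subread 1.5.2, DESeq2 and GRCh38 were used, without roles. For the annotation, the strand setting, molecular identifiers and how TPM was derived, the answer is not given in the sources used here. If strand was ignored, reads of overlapping genes on opposite strands mix. TPM keeps no depth, so the depth is unknown and no count test or interval was made. Coordinates and gene types come from GENCODE 29 on GRCh38, which holds 56898 of the gene identifiers, and promoter windows from RefSeq (GRCh38.p14).

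limma 3.58.1 was run on genes reaching 1 TPM in any 3 of the 6 libraries (R 4.3.3; trend and robust empirical Bayes) with log2(TPM + 1), SNU2535 minus NCI-H2228, two-sided, with Benjamini-Hochberg adjustment over 17297 genes. The procedure was tested on simulated data. Calls used an adjusted p under 0.05, and a second rule added a 2-fold difference. The batch in the labels equals the replicate number and so pairs the libraries, and a fit with batch as a block was an alternative. Deviations of libraries of the same batch from their line's mean correlated at −0.0177, 0.00547 and 0.0308 over genes. Other alternatives changed the pseudocount, filter, scaling, gene types, libraries and the pooled spread. The comparison, its members and the 47 gene lists were chosen with earlier results of these data known. Named were the anchor genes of each list described, list members with the largest called differences, the 10 largest differences and the 10 most abundant line-restricted genes each way. Further genes were named after their values were seen. Some genes of these lists are not reported here.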

Additional observations from a re-analysis of the deposited data

How the results depend on the processing

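Leaving out 1 library at a time gave 12807 to 12959 called genes, against 13333. With batch as a block (pairing by replicate number) 13174 genes were called, and of the genes named only CCNB1, MT-ND1, MT-ND4 and MT-ND5 lost a call, and none gained one. After median-ratio scaling the named genes AKR1B10, CSNK1A1, ERRFI1, FRS2, HK2, NLRC5, SGCE, STAT3 and STAT6 gained a call. JUN and TXNIP also gained one there, with a turned sign (0.10 each). Counts of genes at 2-fold or more were 1452 higher and 1767 lower with a mean of 5 TPM or more, and 1260 and 1486 with a pseudocount of 5. Line-restricted genes numbered 28 in SNU2535 and 53 in NCI-H2228 at 10 and 0.1 TPM.

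The median of epithelial genes was 2.435 after median-ratio scaling and 2.039 with a pseudocount of 5. That of mesenchymal genes was −2.537 with a mean of 5 TPM or more, −1.366 after median-ratio scaling, −1.405 after quantile normalization, −2.702 with a pseudocount of 0.1 and −1.251 with 5. That of antigen presentation genes was −1.315 after median-ratio scaling. That of p53 genes was 1.381 after median-ratio scaling, 1.337 after quantile normalization and 1.132 with a pseudocount of 5. Chromosome 6 had −0.899 with a mean of 5 TPM or more, −0.747 after median-ratio scaling, −0.753 after quantile normalization, −0.938 and −0.602 with pseudocounts of 0.1 and 5, −0.868 without mitochondrial genes and −0.864 to −0.837 without 1 library. Chromosome 22 had 0.925, 0.964, 0.950, 0.929 and 0.662 under the first 5 of these settings. None of these medians changed sign. Within single batches, epithelial genes had 2.240 in batch 1, mesenchymal genes −1.396 in batch 2, p53 genes 1.168 in batch 3, and chromosomes 6 and 22 −0.838 and 0.939 in batch 2.

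Signs turned only for named genes whose difference lay within 0.11 of 0. After median-ratio scaling the values were 0.09 for IFI6, 0.10 for JUN, 0.10 for TXNIP, 0.0027 for BCL2L11, 0.10 for CCNG1, 0.06 for ASNS, 0.01 for BRAF, 0.09 for SQLE, 0.04 for GAB2, 0.01 for B2M, 0.11 for CCNE1. After quantile normalization the values were −0.04 for ERRFI1, 0.04 for IFI6, 0.07 for JUN, 0.05 for CCNG1, 0.01 for ASNS, −0.18 for AKR1B10, 0.0002 for BRAF, 0.05 for SQLE, 0.03 for GAB2, 0.09 for CCNE1. Without mitochondrial genes the values were −0.0034 for AKR1B10. Without 1 library they ran from −0.02 to 0.04 for ERRFI1, −0.10 to 0.02 for IFI6, −0.05 to 0.01 for JUN, −0.04 to 0.01 for TXNIP, −0.04 to 0.06 for HK2, −0.07 to 0.04 for CCNG1, −0.02 to 0.07 for SGCE, −0.01 to 0.02 for AKR1B10, −0.08 to 0.02 for SQLE, −0.01 to 0.13 for SMAD4, −0.04 to 0.03 for CCNE1. The cause was not tested. Depth is unknown, so the precision of low genes cannot be given.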

Other observations

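Some imprinted genes, of which usually only the copy from one parent is active, were fully on in 1 line and off in the other. These genes and those of the next paragraph were chosen after their values were seen. PEG10 had 245, 242 and 258 TPM in the SNU2535 libraries, against 0.637, 0.314 and 0.402 TPM in the NCI-H2228 libraries. Its neighbour SGCE, which shares a control region with it, was on in both lines, with 38.8, 38.5 and 39.7 TPM in SNU2535 and 39.8, 35.4 and 39 TPM in NCI-H2228. PEG10 thus differed between the lines while SGCE stood at close levels. SNRPN and NDN, of the chromosome 15 cluster, were listed at 0 in each SNU2535 library and had 54.4, 54.6 and 56.9 TPM and 59, 53.8 and 57.7 TPM in NCI-H2228. FAM50B was listed at 0 in each SNU2535 library and had 48.6, 48.4 and 56.3 TPM in NCI-H2228. The noncoding MEG3 was listed at 0 in each SNU2535 library, with 14.2, 19.6 and 21.1 TPM in NCI-H2228. H19 and MEST ran the other way, H19 with 22.8, 21.7 and 19.3 TPM in the SNU2535 libraries, against 1.25, 1.14 and 1.32 TPM in the NCI-H2228 libraries, and MEST with 44.3, 45.7 and 48.6 TPM in the SNU2535 libraries, against 12.7, 11.5 and 12.4 TPM in the NCI-H2228 libraries.

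Among genes that most cell types express, TSPYL1 had 0.0466, 0 and 0 TPM in SNU2535 and 98.1, 98 and 99.2 TPM in NCI-H2228, and CCDC50 had 0.152, 0.0767 and 0.102 TPM in SNU2535 and 86.1, 83.6 and 83.6 TPM in NCI-H2228. DNA methylation was not measured in these files. Most listed cancer-testis genes, which tumours switch on outside the germ line, did not pass the filter. Of 41 listed, 2 passed the filter, XAGE1A and XAGE1B, which are near copies and can share reads. Both were called lower in SNU2535 by 2-fold or more, as were 16.5% of all tested genes. Over all 41 the summed level was 3.01 to 4.3 TPM in SNU2535 and 23.2 to 28.8 TPM in NCI-H2228.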
